A study of Mus musculus with 10 samples.

Results

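The 10 genes described here encode enzymes that set the length and the unsaturation of fatty acyl chains in mouse interscapular brown adipose tissue (iBAT): the stearoyl-CoA desaturases Scd2, Scd3 and Scd4, the fatty acid desaturases Fads1, Fads2 and Fads3, and the elongases Elovl1, Elovl3, Elovl4 and Elovl5. They were chosen by name from these families, leaving out the abundant lipogenic enzymes Scd1 and Elovl6 as well as Elovl2, Elovl7 and Fads6. All 10 were found among the 15075 genes of the table. In iBAT of AdCKO mice, Fads3, Elovl1 and Fads1 were higher than in Control, whereas Scd4, Scd3 and Elovl5 were lower. Elovl5 was no longer lower when every library was set to the same total. Scd4 and Scd3 share sequence with the far more abundant Scd1, and the part of Scd1 reads in their levels was not tested. Scd2, Fads2 and Elovl3 passed the threshold in neither direction, although Fads2 and Elovl3 were called higher with the same total in every library. Elovl4 was near the bottom of the scale in every library.

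RNA was taken from the iBAT of 5 Control and 5 AdCKO mice, each mouse giving 1 library, and these were the only groups. AdCKO mice were homozygous for a Crls1 allele with loxP sites around exon 4 and carried Cre under the Adipoq promoter, which is active in brown and white adipocytes and is not known from the other cell types of the depot. Control mice carried the same floxed allele without Cre, although the labels name their genotype wild-type. All mice were C57BL/6, 20 weeks old and housed at room temperature, so nothing here bears on other temperatures. NRPK stands for the normalized number of reads on a gene divided by the counted exon length in kb. Levels in NRPK can thus be compared between genes, with a limit for the Scd genes, which share sequence. Crls1, the cardiolipin synthase, fell from 1060.2 ± 191 to 217 ± 26.4 NRPK (SD, n = 5 in each group), with every AdCKO library below every Control library.

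Summed over all genes, a Control library held 7615403 to 8171138 normalized reads and an AdCKO library 5419800 to 5843024, and depth before normalization is unknown. Adipocyte markers had a summed level of 172275 to 207634 in Control and 118895 to 139614 in AdCKO, to which Fabp4 contributed the most. Of these 6 markers 4 fell and 2, Fabp4 among them, did not pass, with a median log2 fold change of -0.74. The summed brown adipocyte markers were lower at 15506 to 35699 against 50161 to 74318, a sum to which Ucp1 and Cidea contributed the most. Of these 7 brown adipocyte markers 5 fell and Ppargc1a, a coactivator of mitochondrial genes, rose from 101 to 530.5 NRPK (log2 fold change 2.24). Dio2 had a log2 difference of 0.90 that did not pass. With the same total 5 of the 7 were lower and 2 higher, and under quantile normalization 4 were lower and 2 higher. Of 8 macrophage markers 8 rose, with a sum of 428 to 1222 in Control and 5845 to 7863 in AdCKO. Under quantile normalization 7 of these 8 were called higher. Of 5 stromal markers 5 rose as well, with a sum of 408 to 598 and then 2764 to 4165, and of 4 tested Schwann cell markers 4 did, with 502 to 611 and then 841 to 1162. Skeletal muscle markers summed to 6134, 23549 and 9163 in AdCKO replicates 1, 2 and 4, against 281 and 286 in AdCKO replicates 3 and 5 and 456 to 492 in Control. In these whole-tissue samples, fewer cells of a type and less RNA per cell cannot be told apart.

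Fatty acids of palmitate length are extended on the endoplasmic reticulum by a cycle whose first condensation is carried out by an Elovl enzyme, and each Elovl accepts chains of a certain length and saturation. Scd enzymes place the first double bond in a saturated chain and make palmitoleate and oleate. Fads1 and Fads2 add double bonds nearer to the carboxyl end, and together with Elovl5 they convert linoleic and alpha-linolenic acid into long polyunsaturated fatty acids. Brown fat is known for a high capacity to elongate fatty acids, and cardiolipin of many mouse tissues is rich in linoleoyl chains.

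In the coordinates of the deposited table (mm9), 7 of the 10 genes lie on chromosome 19. Fads3 (chr19:10116038-10134161), Fads2 (chr19:10138654-10175993) and Fads1 (chr19:10257378-10271362) are neighbours, with 4492 bases between Fads3 and Fads2. Scd3 (chr19:44277778-44318506), Scd2 (chr19:44368166-44381352) and Scd4 (chr19:44407816-44421233) form a second cluster together with Scd1 (chr19:44468940-44482199), and Elovl3 (chr19:46206389-46210184) lies further along. Elovl1 is on chromosome 4 (chr4:118100698-118105557), and Elovl4 (chr9:83672299-83699912) and Elovl5 (chr9:77765172-77832326) are on chromosome 9. Neighbouring genes differed in their response: within the Fads cluster Fads3 and Fads1 rose while Fads2, between them, did not pass the threshold.

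The Scd genes are near copies of each other, which matters for how far their levels can be read apart. The coding sequence of Scd1 was 90.7% identical to that of Scd2, 91.5% to Scd3 and 86.0% to Scd4, whereas the Fads genes shared 68.4% to 72.8% and the elongases 61.7% to 65.9%. A stretch of 75 coding bases from 1 exon is shown because Scd1, Scd3 and Scd4 are the same over all of it. A capital marks the single base at which Scd2 differs from Scd1.
Scd1 (chr19:44476281-44476355, minus strand): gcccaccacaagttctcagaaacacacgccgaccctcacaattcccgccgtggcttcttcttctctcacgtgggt
Scd2 (chr19:44374132-44374206, plus strand): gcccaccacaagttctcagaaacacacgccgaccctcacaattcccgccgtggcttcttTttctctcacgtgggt
Scd3 (chr19:44310294-44310368, plus strand): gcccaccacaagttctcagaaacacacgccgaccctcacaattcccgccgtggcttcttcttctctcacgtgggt
Scd4 (chr19:44413433-44413507, plus strand): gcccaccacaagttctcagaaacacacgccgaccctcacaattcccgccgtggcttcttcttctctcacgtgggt

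The second stretch, also of 75 coding bases within 1 exon, is the one with the most differences from Scd1 summed over the other three genes, and it shows where reads of the paralogs can be separated. Capitals mark bases that differ from Scd1, of which there are 12 in Scd2, 18 in Scd3 and 24 in Scd4. All sequences of this pair of stretches are from the mm9 reference genome, 5′ to 3′ along the coding strand.
Scd1 (chr19:44474635-44474709, minus strand): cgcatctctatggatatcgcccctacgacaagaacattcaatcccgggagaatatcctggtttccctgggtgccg
Scd2 (chr19:44375857-44375931, plus strand): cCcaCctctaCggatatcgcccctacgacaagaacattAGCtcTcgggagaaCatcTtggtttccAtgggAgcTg
Scd3 (chr19:44313021-44313095, plus strand): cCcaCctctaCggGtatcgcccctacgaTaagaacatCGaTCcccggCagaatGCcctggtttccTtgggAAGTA
Scd4 (chr19:44415866-44415940, plus strand): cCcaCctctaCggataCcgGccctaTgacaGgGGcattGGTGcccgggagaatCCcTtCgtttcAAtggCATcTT

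Over the annotated exons, the share of 50-base windows that also occur exactly in Scd1 was 2.68% for Scd2, 4.88% for Scd3 and 2.78% for Scd4, and with up to 2 mismatches it was 12.9% for Scd3 and 7.38% for Scd4, with Scd2 between them. For Fads1, Elovl1, Elovl3, Elovl4 and Elovl5 no 50-base window was shared with another gene, and for Fads2 and Fads3 the share was 0.343% and 0.155%. How reads that match several genes were counted is not given in the sources used here. In Control Scd1 was at 119134 NRPK, against 1522 for Scd2, 1447 for Scd4 and 681 for Scd3. A small share of windows therefore need not mean a small share of reads, which was not tested.

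**Figure D1:**
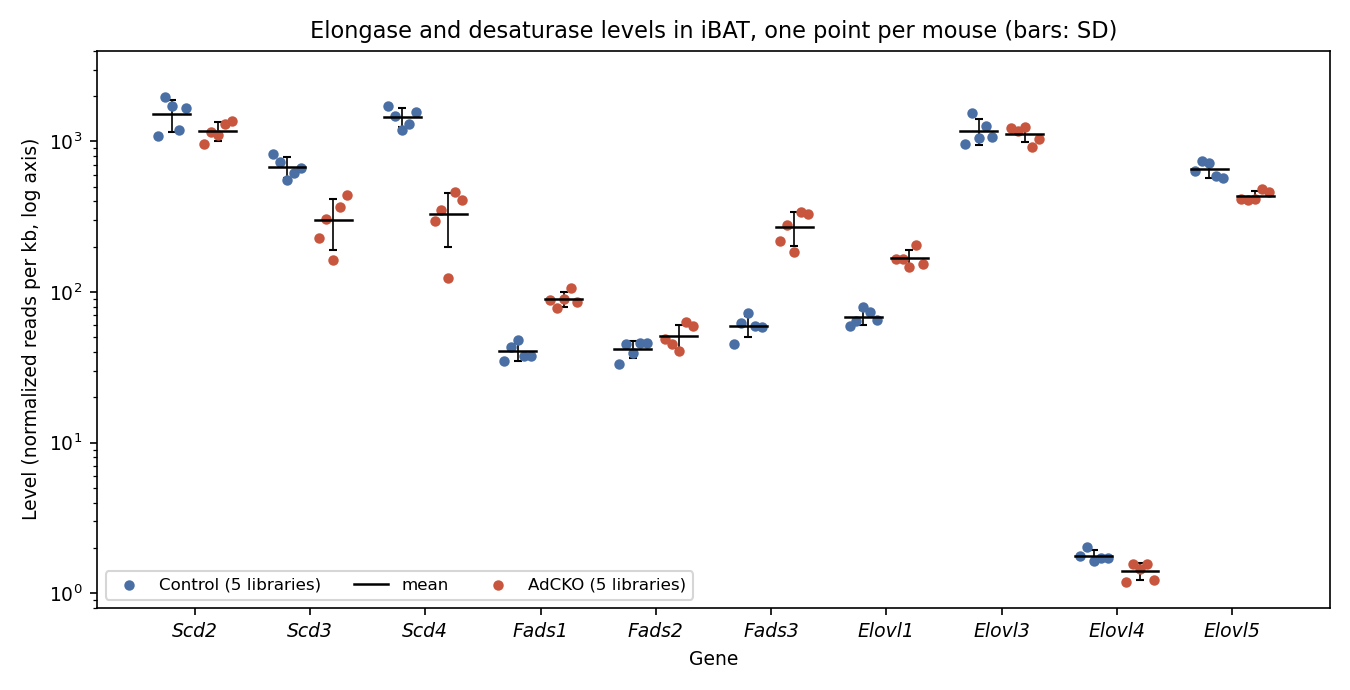
Level of each of the 10 genes in NRPK (log axis), with 1 point per mouse, blue for Control and red for AdCKO, a black line at the mean and bars for the SD over 5 libraries. The red points lie wholly above the blue for Fads1, Fads3 and Elovl1 and wholly below them for Scd3, Scd4, Elovl5 and Elovl4, and the groups overlap for Scd2, Fads2 and Elovl3.

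Of the 9 genes that passed the filter of a mean of at least 10 in Control or in AdCKO, 3 were higher and 3 lower at an adjusted p under 0.01 (limma, Benjamini-Hochberg over 11244 genes). Over all tested genes 25.6% were called higher and 28.0% lower, 53.6% in either direction, against 66.7% of these 9, so that a share of called genes of this size is not far from the background of the dataset. The libraries of the groups did not overlap for 6 of the 9 tested genes and for Elovl4, against 50.9% of all tested genes. The median log2 fold change of the 9 genes was -0.06, beside -0.01 over all tested genes.

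Of the 3 Fads genes, 2 rose and by unequal amounts. Fads3, which desaturates sphingoid bases rather than the usual polyunsaturated substrates, had the largest rise among the 10 genes. Its level was 45.5, 62.5, 72.0, 59.4 and 58.8 NRPK in Control replicates 1 to 5 and 218, 280.4, 185, 338 and 332 in AdCKO replicates 1 to 5. The lowest AdCKO library, replicate 3, was above the highest Control library, also replicate 3. The means were 59.7 ± 9.52 and 270.5 ± 68.1 (SD, n = 5), which is 2.14 on the log2 scale with an SE of 0.17 (limma, adjusted p = 4.9e-07).

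Fads1, the desaturase that completes arachidonic and eicosapentaenoic acid, rose from 35.1, 43.4, 48.2, 37.4 and 37.6 NRPK in Control to 88.2, 77.8, 89.2, 106 and 86.4 in AdCKO. Both groups were tight, with a coefficient of variation of 13.3% and 11.6%, and a wide gap separated them. On the log2 scale the change was 1.13 with an SE of 0.10 (limma, adjusted p = 1.4e-06).

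Fads2, which carries out the first desaturation of linoleic and alpha-linolenic acid, was at 33.5, 45.2, 39.2, 46.0 and 45.6 NRPK in Control and at 48.7, 45.1, 40.5, 63.0 and 59.1 in AdCKO. AdCKO replicates 1, 4 and 5 were above every Control library, while replicates 2 and 3 lay inside the Control range. The log2 difference of 0.28 (SE 0.13) did not pass the threshold in limma (adjusted p = 0.080), nor did its means in the exact permutation test (two-sided p = 0.11). After scaling of all libraries to 1 total, Fads2 had a log2 fold change of 0.75 and passed (limma adjusted p = 0.00012).

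In Control Fads3 was above Fads2 in each of the 5 libraries, and it made up 41.9% ± 1.96, Fads2 29.6% ± 3.11 and Fads1 28.5% ± 2.11 of their summed level (SD, n = 5). In AdCKO the sum was 411 ± 81.0 against 142 ± 17.1 NRPK, and Fads3 accounted for 65.2% ± 4.88 of it, Fads1 for 22.3% ± 4.24 and Fads2 for 12.5% ± 0.923. The ratio of Fads3 to Fads2 went from 1.43 ± 0.231 to 5.24 ± 0.733, and its log2 was higher by 1.86 in AdCKO. The ratio of Fads1 to Fads2 went from 0.975 ± 0.173 to 1.78 ± 0.271, a log2 difference of 0.86. Neither ratio overlapped between the groups, and for each the exact two-sided permutation test gave p = 0.0079, also after adjustment over the 7 gene pairs compared, which is the smallest value that 5 against 5 libraries can give. A ratio within a library shows that 2 genes changed unequally, and apart from the pseudocount a common scaling factor cancels out of it.

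Among the elongases, Elovl1, which makes saturated and monounsaturated very long chains used in sphingolipids, rose. Its level was 59.7, 63.9, 79.3, 73.3 and 65.7 NRPK in Control and 165, 166, 147, 207 and 152 in AdCKO. The groups were far apart, and AdCKO replicate 4 was the highest library. On the log2 scale the change was 1.28 with an SE of 0.10 (limma, adjusted p = 5.5e-07).

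The 3 genes that rose did so in libraries that also held more macrophage and stromal RNA, as given above by the sums of those markers, and the part of these cells in the rise was not tested. Within AdCKO the macrophage sum was highest in replicates 2 and 4 (7863 and 7806) and the stromal sum lowest in replicate 5 (2764). Fads3 was highest in replicates 4 and 5 and lowest in replicates 1 and 3. Elovl1 was highest in replicates 4 and 2 and lowest in replicates 5 and 3. Fads1 was highest in replicates 4 and 3 and lowest in replicates 5 and 2. Without AdCKO replicates 1, 2 and 4, the libraries with skeletal muscle markers, Fads3, Fads1 and Elovl1 had log2 fold changes of 2.05, 1.11 and 1.13 and were still called.

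Elovl5, the elongase of the polyunsaturated series that acts between Fads2 and Fads1, fell. It was at 633, 740.1, 724, 587 and 575 NRPK in Control and at 415, 409, 416, 481 and 459.5 in AdCKO. No AdCKO library reached the lowest Control library, and the AdCKO libraries were close together, with a coefficient of variation of 7.38%. On the log2 scale the change was -0.57 with an SE of 0.09 (limma, adjusted p = 0.0001). This call was lost with the same total in every library, where the log2 difference was -0.09 (adjusted p = 0.32), and it held under quantile normalization. The ratio of Elovl5 to Fads2 fell from 15.8 ± 3.02 to 8.66 ± 1.08 without overlap, a log2 difference of -0.85 (exact two-sided permutation p = 0.0079, also adjusted over 7 pairs).

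Elovl3, an elongase that brown fat induces in the cold and that makes saturated and monounsaturated very long chains, was the most abundant of the 4 elongases described. It was at 963, 1553, 1054, 1258 and 1077 NRPK in Control and at 1221, 1181, 1254, 921 and 1042 in AdCKO. The ranges overlapped, with 2 Control libraries (replicates 2 and 4) above every AdCKO library and 1 AdCKO library (replicate 4) below every Control library. The log2 difference was -0.06 (SE 0.13, limma adjusted p = 0.71, exact two-sided permutation p = 0.68). Its sign turned with the same total in every library (0.42, limma adjusted p = 0.0099, called higher) and under quantile normalization (0.29, limma adjusted p = 0.047, not called), so that the direction for Elovl3 depended on the scaling.

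Elovl6, the elongase of palmitate, is not among the 10 genes, but the standing of Elovl3 turned on it. Elovl6 was at 3384 ± 238 NRPK in Control and 749.9 ± 255 in AdCKO. The ratio of Elovl3 to Elovl6 was 0.352 ± 0.0801 in Control and 1.68 ± 0.683 in AdCKO, with a log2 difference of 2.17, no overlap and an exact two-sided permutation p of 0.0079, also adjusted over 7 pairs. In the other direction, the ratio of Elovl3 to Elovl1 fell from 17.5 ± 4.10 to 6.87 ± 1.49, a log2 difference of -1.34 with the same p.

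The summed level of the 6 elongase genes in the table was 5288 ± 266 NRPK in Control and 2481 ± 166 in AdCKO. Elovl6 accounted for 64.0% ± 4.16 of it in Control and for 29.8% ± 8.11 in AdCKO. The share of Elovl3 was 22.3% ± 3.66 and 45.7% ± 8.33, that of Elovl5 12.3% ± 1.39 and 17.6% ± 0.353, and that of Elovl1 1.30% ± 0.200 and 6.75% ± 0.778. Elovl3 was thus the elongase with the highest level in AdCKO replicates 1, 2, 3 and 5, whereas Elovl6 was in every Control library and in AdCKO replicate 4.

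**Figure D2:**
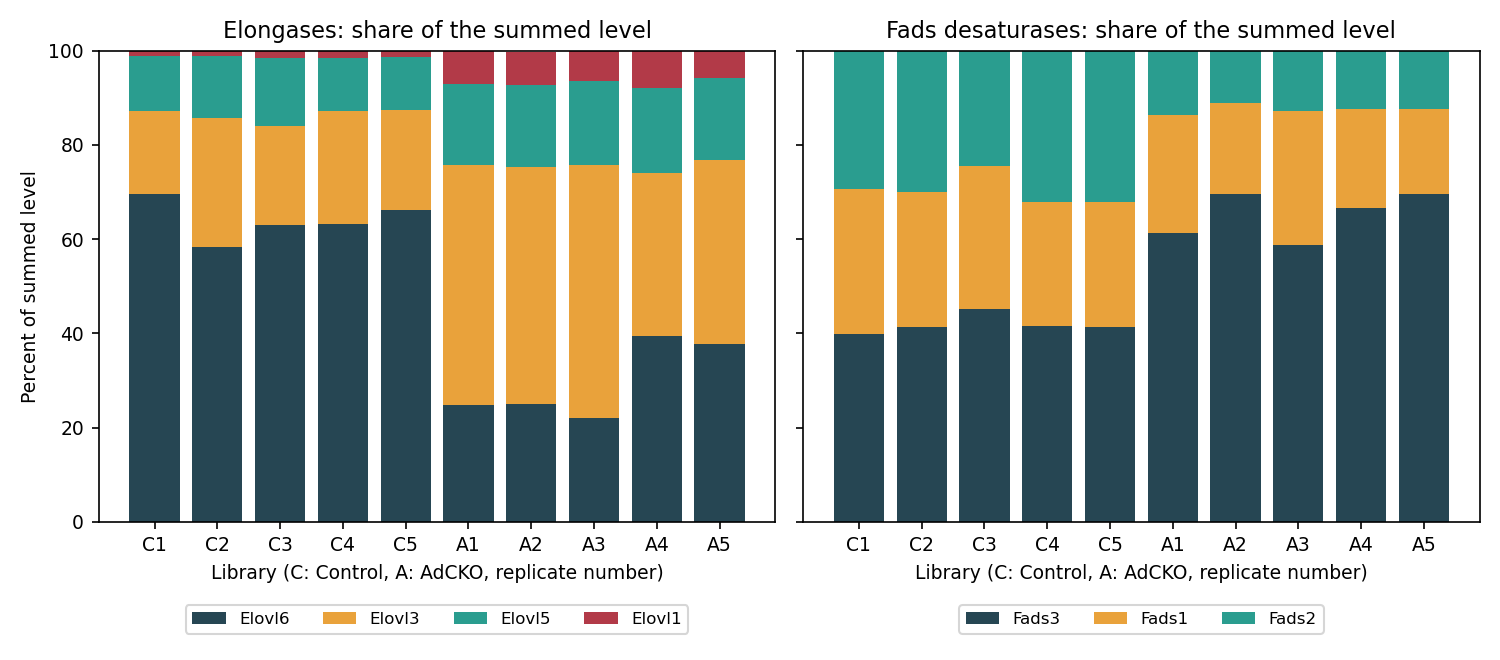
Share of each gene in the summed level of the elongases (left) and of the 3 Fads genes (right), in percent, with 1 bar per library (C for Control, A for AdCKO, with the replicate number), and Elovl4 and Elovl7, each under 0.1%, are too thin to draw. Elovl6 takes 58.4% to 69.5% of the elongase sum in Control and 22.1% to 39.4% in AdCKO, and Fads3 takes 39.9% to 45.2% of the Fads sum in Control and 58.8% to 69.5% in AdCKO.

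Elovl4, which makes the ultra-long chains of retina, brain and skin, was at 1.76, 2.03, 1.63, 1.72 and 1.72 NRPK in Control and at 1.19, 1.56, 1.46, 1.56 and 1.22 in AdCKO. The 5 AdCKO values were all below the Control values, and all 10 lay far under the filter, so the gene was left out of the test across genes. The exact permutation test on the means gave a two-sided p of 0.0079. Without the filter the log2 difference was -0.21 (limma, adjusted p = 0.0059). Both tests used the deposited scaling. Elovl4 was not tested with the same total or under quantile normalization, so whether its direction depends on the scaling is not known. The deposited values were moderated between samples and hold no 0, and at such levels the size of a difference is not reliable. The log2 ratio of Elovl4 to Elovl1 was lower by 1.49 in AdCKO (same p, also adjusted).

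Scd4, a desaturase known mainly from the heart, fell the most of the 10 genes. It was at 1711, 1466, 1187, 1306 and 1566 NRPK in Control and at 297, 351, 123, 460.0 and 406 in AdCKO. AdCKO replicate 3 was the lowest library by a wide margin, and the highest AdCKO library, replicate 4, was far below the lowest Control library. On the log2 scale the change was -2.26 with an SE of 0.29 (limma, adjusted p = 2.3e-05).

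Scd3, a palmitoyl-CoA desaturase known from sebaceous glands of the skin, was at 829.8, 733, 554, 618 and 671 NRPK in Control and at 228, 303, 163, 369 and 442 in AdCKO. The groups did not overlap, and AdCKO replicate 3 was again the lowest. On the log2 scale the change was -1.24 with an SE of 0.23 (limma, adjusted p = 0.00042). Of 6 sebaceous and epidermal markers 3 were in the table, with a summed level of 52.4 to 65.6 in Control and 50.2 to 60.7 in AdCKO. Only 1 of these 3 passed the filter, and the part of such cells in the Scd3 level was not tested.

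Scd2, the widely expressed desaturase of brain and developing tissues, was at 1082, 1959, 1712, 1195 and 1660.1 NRPK in Control and at 956, 1161, 1095, 1303 and 1361 in AdCKO. Control replicates 1 and 4 lay inside the AdCKO range, and the other three were above all AdCKO libraries. The log2 difference of -0.35 (SE 0.16) did not pass the threshold (limma adjusted p = 0.076, exact two-sided permutation p = 0.10). It was 0.13 with equal totals and 0.07 under quantile normalization, neither of them called.

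Scd1 itself stood at 119134 ± 12244 NRPK in Control and 33531 ± 11226 in AdCKO, so that the other 3 Scd genes together made up a few percent of the family's summed level. Scd1 held 97.0% ± 0.314 of that sum in Control and 94.6% ± 1.31 in AdCKO. The share of Scd2 was 1.25% ± 0.342 and 3.64% ± 1.38, that of Scd3 0.554% ± 0.0599 and 0.854% ± 0.120, and that of Scd4 1.18% ± 0.0771 and 0.901% ± 0.126. The log2 ratio of Scd2 to Scd1 was higher by 1.56 in AdCKO, without overlap (exact two-sided permutation p = 0.0079, also adjusted over 7 pairs).

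The levels of Scd3 and Scd4 followed Scd1 across mice, and that of Scd2 did not. After subtraction of the group means, the correlation with Scd1 on the log2 scale over the 10 libraries was r = 0.986 for Scd4, 0.903 for Scd3 and 0.227 for Scd2. These are descriptions, since the values of a library share its scaling and the Scd genes share sequence. Scd1 varied more in AdCKO than in Control (coefficient of variation 33.5% and 10.3%), and no r was computed for each group apart. Scd4 was 1.10% to 1.31% of the Scd1 level in Control and 0.742% to 1.06% in AdCKO, and Scd3 was 0.504% to 0.634% and 0.740% to 1.07%. Relative to Scd1, Scd4 was thus lower and Scd3 higher in every AdCKO library than in any Control library. The share of reads of Scd1 origin within these low levels was not tested.

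**Figure D3:**
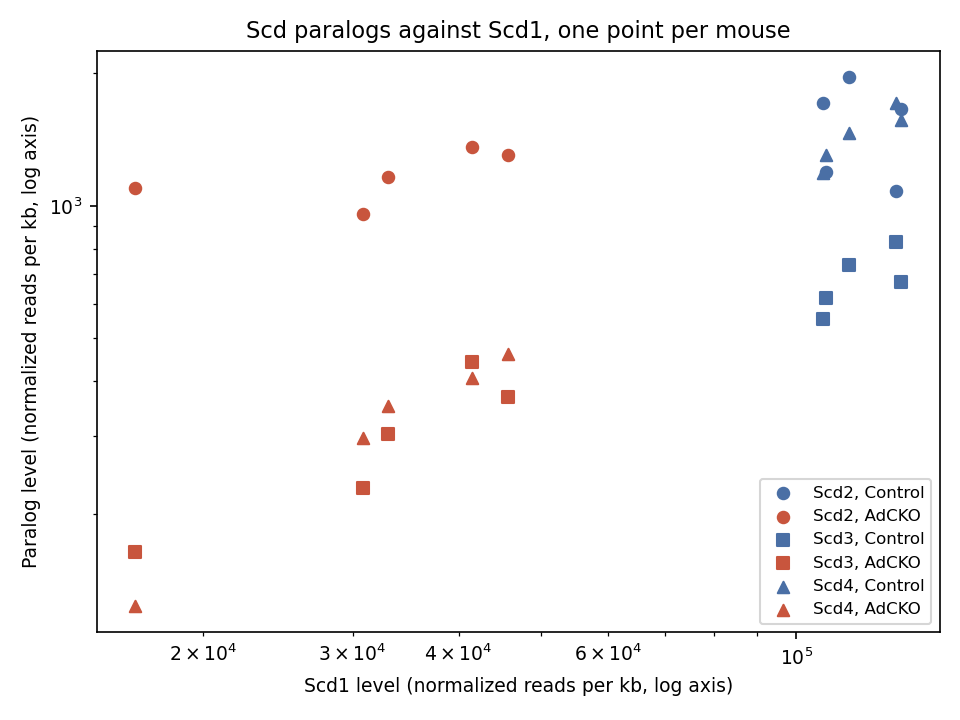
Level of Scd2 (circles), Scd3 (squares) and Scd4 (triangles) against that of Scd1 in NRPK (both axes log), with 1 point per mouse, blue for Control and red for AdCKO. Scd3 and Scd4 fall along a rising line with Scd1 in both groups, and the AdCKO library at the left, replicate 3, has the lowest Scd1, Scd3 and Scd4, while Scd2 stays between 956 and 1361 in AdCKO.

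The order of levels changed between the groups. In Control it ran Scd2, Scd4, Elovl3, Scd3, Elovl5, Elovl1, Fads3, Fads2, Fads1 and Elovl4, and only the steps from Elovl3 to Scd3, from Elovl5 to Elovl1 and from Fads1 to Elovl4 separated neighbours whose libraries did not overlap. In AdCKO it ran Scd2, Elovl3, Elovl5, Scd4, Scd3, Fads3, Elovl1, Fads1, Fads2 and Elovl4. There the neighbours were apart at the steps after Elovl3, Elovl1, Fads1 and Fads2. The part of Scd1 reads in the places of Scd2, Scd3 and Scd4 was not tested.

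AdCKO mice differed among themselves in a way that several of these genes shared. Replicates 4 and 5 had the highest and replicate 3 the lowest level of Scd1, Scd3, Scd4, Fads2, Fads3 and Elovl6. Elovl3 ran otherwise, with replicate 3 highest and replicates 5 and 4 lowest. Within groups Elovl3 correlated with Elovl6 at r = -0.600 and with Scd1 at r = -0.529, and Fads1 with Elovl5 at r = 0.779 and Fads2 with Fads3 at r = 0.760, again over 10 libraries and as descriptions. The closest genes were picked from among all tested genes over 10 libraries, so a high r can come from the search itself. No background was computed for these values. The gene whose values lay closest to Scd3 was Bckdk, the branched-chain ketoacid dehydrogenase kinase (r = 0.992), and the gene closest to Scd4 was Scd1. For Fads3 the closest genes were Chmp2a (r = 0.955) and Extl1 (r = 0.953), for Fads1 Csrp1 (r = 0.936) and Prune2 (r = 0.924), for Elovl1 Cetn2 (r = 0.941) and Actn1 (r = 0.918), and for Elovl5 Rps6ka4 (r = 0.972) and Htatip2 (r = 0.959). For Scd2 they were Ascc1 (r = 0.945) and Phlda3 (r = 0.942), for Fads2 Hmbox1 (r = 0.947) and Telo2 (r = 0.945), for Elovl3 Tardbp (r = 0.925) and Snrpd2 (r = 0.920), and the next after those named were Usp4 for Scd3 (r = 0.954) and Bcl2l1 for Scd4 (r = 0.949).

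The direction of a few of the genes depended on how the libraries were scaled. Setting every library to the same total raised the median over all tested genes by 0.48 (log2) and turned the split of calls from 47.7% higher and 52.3% lower to 86.5% and 13.5%. Of the 9 genes, 5 were then higher (Fads1, Fads2, Fads3, Elovl1 and Elovl3) and 2 lower (Scd3 and Scd4). Under quantile normalization 3 were higher and 3 lower, as with the deposited scaling. Fads1, Fads3 and Elovl1 were higher and Scd3 and Scd4 lower under all 3 scalings.

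**Figure D4:**
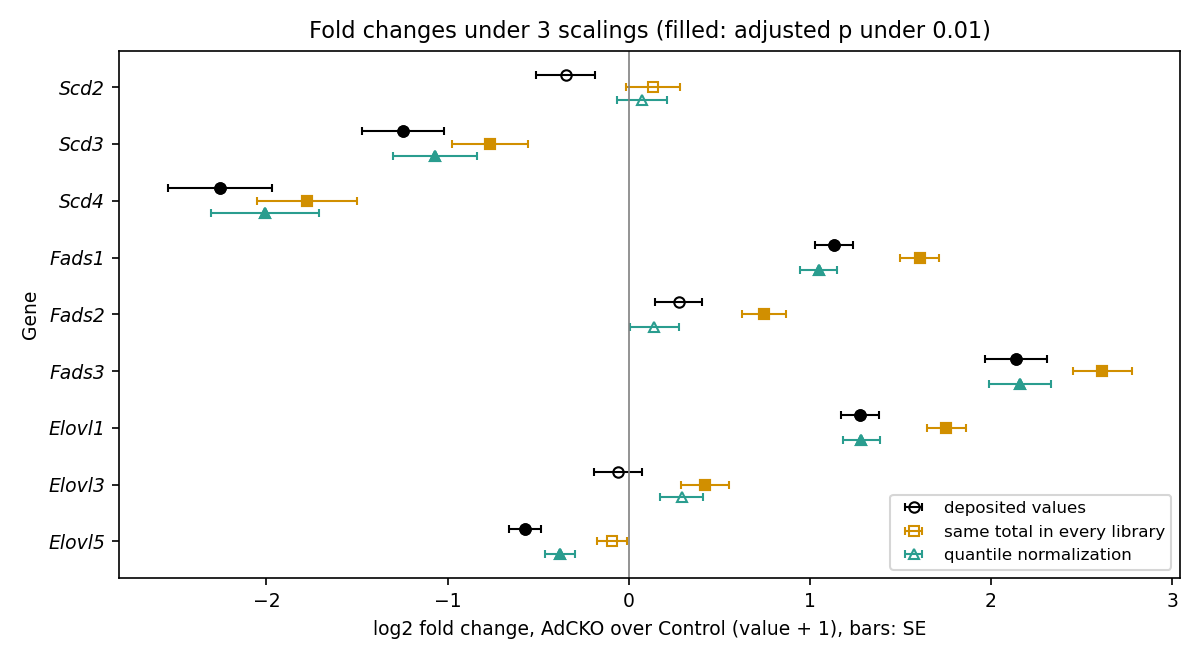
Log2 fold change of AdCKO over Control of the 9 tested genes on the log2(value + 1) scale, with bars for the SE, under the deposited values (circles), the same total in every library (squares) and quantile normalization (triangles), and filled symbols where the adjusted p was under 0.01. The same total shifts every gene to the right, which carries Scd2 and Elovl3 across 0 and leaves Elovl5 at -0.09, while Scd3, Scd4, Fads1, Fads3 and Elovl1 stay on their side.

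The enzymes around these genes were described from lists by step. Of 7 tested genes on the list for malonyl-CoA and palmitate, the substrates of elongation, 7 were lower, with a median log2 fold change of -2.06 beside -0.01 over all genes. After scaling to equal totals 7 were again lower, and under quantile normalization 6 were, with a median of -1.26. Fasn, the fatty acid synthase, fell by 2.90 (SE 0.24, limma, adjusted p = 7e-07), the acetyl-CoA carboxylases Acaca by 2.56 (SE 0.18) and Acacb by 2.07 (SE 0.11), and the citrate lyase Acly by 2.06 (SE 0.21), all on the log2 scale. Mlycd, the decarboxylase that breaks malonyl-CoA down rather than making it, fell by 0.95 on the log2 scale (SE 0.09). Of the remaining elongases and desaturases, 2 of 4 tested rose and 2 fell, also with the same total. Under quantile normalization 2 rose and only 1 was called lower. With the deposited scaling, those that rose were the dihydroceramide desaturases Degs1 (0.79, SE 0.09) and Degs2 (1.16, SE 0.11). Those that fell were Scd1 (-1.90, SE 0.24) and Elovl6 (-2.23, SE 0.19). Elovl7 (1.05 and 1.89 NRPK in Control and AdCKO) and Fads6 (3.87 and 6.07) were under the filter.

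The elongation cycle needs a ketoreductase, a dehydratase and an enoyl reductase beside the Elovl enzyme. Of 6 tested genes 1 rose and 2 fell, with a median of -0.15, and with the same total 2 rose and 1 fell. The ketoreductase Hsd17b12 (-0.71, SE 0.07) and the enoyl reductase Tecr (-1.01, SE 0.14) fell, and the dehydratase Hacd4, listed as Ptplad2, rose at a low level from 6.75 to 13.9 NRPK (0.95, SE 0.10). The other dehydratases Hacd1, Hacd2 and Hacd3 had log2 differences of -0.13, -0.18 and 0.05 and did not pass.

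Desaturases draw electrons from cytochrome b5 and its reductases, where 1 of 5 tested genes rose and 1 fell, with a median of -0.13, and with the same total 3 rose and 0 fell. Cyb5r1 rose from 141 ± 10.6 to 571 ± 46.8 NRPK (2.01 on the log2 scale with an SE of 0.08, limma, adjusted p = 2.2e-09), and Cyb5r3 fell by 0.62 on the log2 scale (SE 0.13). Cyb5a, the main microsomal cytochrome b5, was at 1633 ± 329 and 1634 ± 217.

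Of 8 tested genes for activation and transfer of long-chain acyl groups, 1 rose and 4 fell, with a median of -0.39, and with the same total 3 rose and 1 fell. Slc27a2, an acyl-CoA synthetase for very long chains, fell by 2.81 (SE 0.28), Slc27a1 by 0.84 (SE 0.17), Acsl3 by 0.82 (SE 0.19) and Mboat7, an acyltransferase for arachidonate, by 0.48 (SE 0.07), all on the log2 scale. Acsl4, the acyl-CoA synthetase that prefers arachidonate, rose by 0.86 (SE 0.13). Cers2, which attaches very long chains to ceramides, was at 802 in both groups.

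Peroxisomes shorten very long chains, and 9 of 12 tested genes of that pathway fell while 1 rose, with a median of -0.64, whereas with the same total 3 rose and 3 fell. The dienoyl-CoA reductase Decr2 (-1.53, SE 0.09) and the peroxisomal transporter Abcd3 (-1.21, SE 0.13) fell, as did Hsd17b4 (-0.55, SE 0.06), and the thiolase Acaa1b rose (0.89, SE 0.11). Of 14 tested regulators of lipogenic transcription 9 fell and none rose, with a median of -0.36, whereas with the same total 2 were higher and 2 lower. Mlxipl, which encodes ChREBP, fell by 1.79 (SE 0.12), Insig1 by 1.01 (SE 0.15), Scap, the escort of SREBP, by 0.36 (SE 0.06), Srebf1, which encodes SREBP-1, by 0.71 (SE 0.13) and Nr1h3, the liver X receptor alpha, by 0.37 (SE 0.06), all on the log2 scale.

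**Figure D5:**
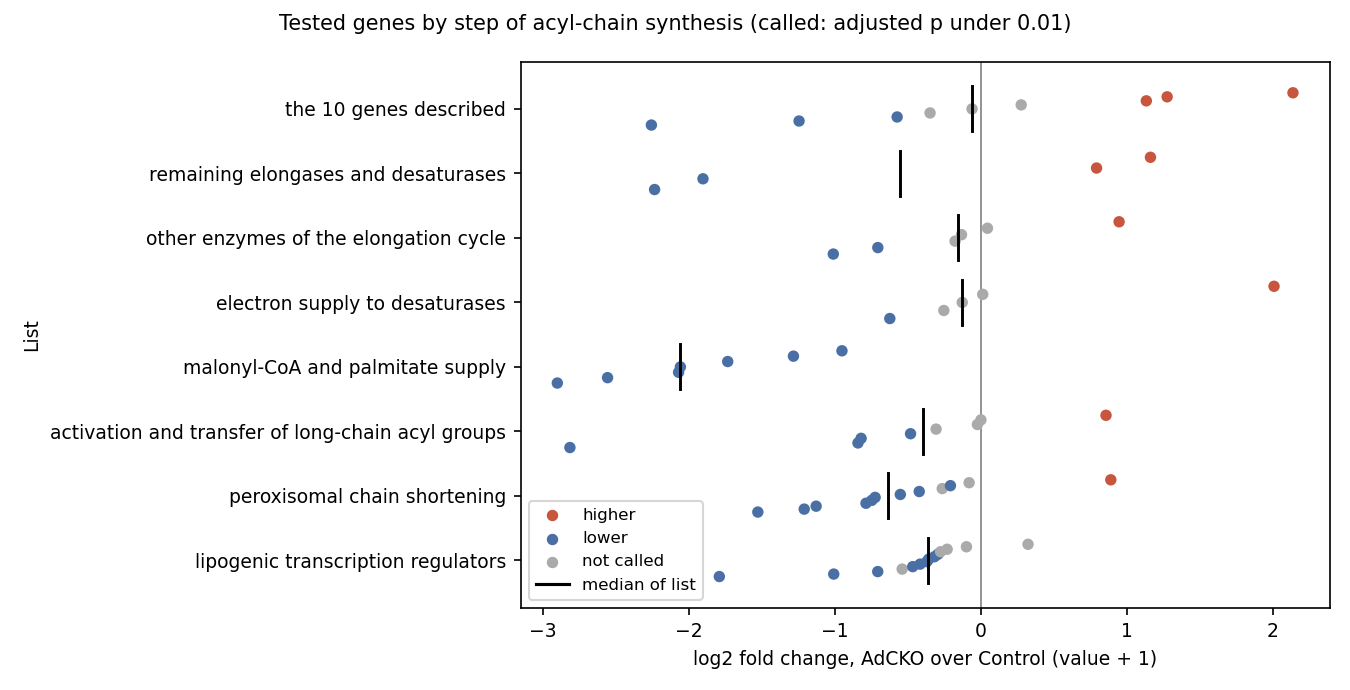
Log2 fold change of AdCKO over Control (value + 1) of each tested gene, by list, with red points called higher, blue called lower and grey not called, and a black line at the median of the list. All 7 genes of malonyl-CoA and palmitate supply lie to the left, between -2.90 and -0.95, while the 9 elongases and desaturases described spread from -2.26 to 2.14.

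Promoter sequences from RefSeq on another build (GRCm38.p6) were at hand for 7 of the 10 genes and not for Scd2, Fads1 and Elovl3. The window of 250 bases before to 50 after the start site was searched on both strands for CCAAT (the NF-Y box), TCACNCCAC (a sterol response element), TGATGNAA (the ATF4 and C/EBP composite element) and the PPAR response element. CCAAT was found in Fads3, in 1 of 2 windows of Elovl1, in Elovl4 and in Elovl5, and in neither Scd3, Scd4 nor Fads2, and 37.4% of all 32851 windows hold it. No window of these genes held TCACNCCAC, TGATGNAA or the PPAR response element, which were in 1.24%, 3.97% and 0.0396% of all windows. The last 120 bases before the start site are shown for the neighbours Fads3 and Fads2, of which Fads3 rose and Fads2 did not pass, and for Elovl1, which rose, and Elovl5, which fell. Capitals mark CCAAT on either strand.
Fads3 (chr19:10041428-10041547, plus strand): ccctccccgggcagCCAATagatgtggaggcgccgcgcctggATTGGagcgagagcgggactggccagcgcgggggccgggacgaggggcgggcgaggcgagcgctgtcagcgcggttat
Fads2 (chr19:10101504-10101623, minus strand): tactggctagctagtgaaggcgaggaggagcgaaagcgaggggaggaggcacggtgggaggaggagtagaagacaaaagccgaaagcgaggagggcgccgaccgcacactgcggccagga
Elovl1 (chr4:118427973-118428092, plus strand): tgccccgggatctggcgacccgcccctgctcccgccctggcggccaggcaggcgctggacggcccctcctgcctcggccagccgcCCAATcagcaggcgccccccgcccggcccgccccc
Elovl5 (chr9:77917245-77917364, plus strand): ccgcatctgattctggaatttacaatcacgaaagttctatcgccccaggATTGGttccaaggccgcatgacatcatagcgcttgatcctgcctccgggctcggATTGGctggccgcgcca

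The boxes of Fads3 lie 106 to 102 and 78 to 74 bases before the start site, that of Elovl1 35 to 31, and those of Elovl5 71 to 67 and 17 to 13. The box was thus found in genes that rose and in 1 that fell. These matches describe letters in a window, and no binding was measured.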

How the data were processed

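Per the paper's methods, the authors aligned reads from polyadenylated RNA to mm9 (STAR), assigned them to exons (iRNA-seq) and normalized with DESeq2. Each deposited value is a coverage signal: normalized reads per kb (NRPK), moderated between samples by a step whose name is not given in the sources used here. They are not counts: no value is 0, and 22.3% to 23.2% of low values lay within 0.1 of a whole step, against 20% by chance, so no count model was run and no counting error can be given. Deposited columns of fold changes and adjusted p-values, and the lists of called genes, were not used.

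Groups were taken from the labels. Libraries within Control correlated at 0.985 to 0.995 and within AdCKO at 0.957 to 0.989. A pseudocount of 1 was added before the log2, so changes of low genes are understated. Genes with a mean of at least 10 in Control or AdCKO (11244) entered limma 3.58.1 under R 4.3.3 (intensity trend, two-sided, Benjamini-Hochberg, threshold 0.01), a test checked on simulated data. Log2 ratios of 7 gene pairs were compared with exact two-sided permutation tests, and shares were described without a test. Sequence identity was computed from the mm9 annotation, whose gene model of Elovl1 differed from the counted length by 227 bases, and whose exons of Scd2 and Elovl3 overlap those of a neighbouring gene.

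The 10 genes and all lists were chosen with earlier results of these data known. Named beyond the 10 genes were Crls1, Scd1, Elovl6, the other elongases and desaturases, at most 4 called genes per list by smallest p with called genes that went against the list, and the 2 genes with the highest within-group correlation to each tested gene. Hacd1 to Hacd3, Cyb5a, Cers2, Acly, Acsl3, Srebf1, Ppargc1a, Dio2, Ucp1, Cidea and Fabp4 were named after their values were seen. Alternatives were pseudocounts of 0.1 and 10, leaving out the filter or requiring a mean over all libraries of 1, the same total, quantile normalization, removal of a trend with length, limma with no trend, robust fitting or array weights, the replicate number as a block, an adjusted p of 0.05 and each library left out. Leaving out the 3 AdCKO libraries high in muscle markers was added after seeing the data. Tests with edgeR or DESeq2 on whole reads were planned and not run. Plots were made in Python 3.11.15 (matplotlib 3.10.9).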

Additional observations from a re-analysis of the deposited data

Results flagged for a closer look

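Levels, ratios and shares of the genes were searched for a library far from the other 4 of its group, in 52 groups of 5, of which chance flags about 1 in 20. There were 4 such values, 3 of them in AdCKO replicate 3, the library with the lowest Scd1. Its log2 ratio of Scd2 to Scd1 was -3.92, with the next highest at -4.83. Its share of Scd2 among the stearoyl-CoA desaturases was 6.08%, with the next at 3.34%, and its share of Scd4 was 0.685%, with the next lowest at 0.918%. In Control replicate 3 the log2 ratio of Fads3 to Fads2 was 0.86, with the next highest at 0.46.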

How the results depend on the processing

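Among the genes described, 3 higher and 3 lower were called under each alternative, each library left out included, other than the same total in every library, and without a filter or with a mean of at least 1 Elovl4 made the lower calls 4. Of the genes of the lists, 6 were higher and 34 lower with the deposited scaling, and 8 and 23 under quantile normalization. With the same total 5 of the genes described were higher, and 15 genes of the lists were higher and 16 lower. Over all genes 7013 were then higher and 1094 lower. Then Scd2 (0.13) and Elovl3 (0.42) turned in sign, as they did under quantile normalization (0.074 and 0.29). Elovl3 also did so without Control replicate 2 (0.044) or AdCKO replicate 4 (0.0095), within a range of -0.13 to 0.044 over each library left out. Leaving out each library gave 2643 to 2887 genes higher and 2880 to 3066 lower. Same-numbered libraries did not deviate together (correlations of -0.27 to 0.10), and the main test did not pair mice by number. Whether same-numbered mice were paired in the experiment is not known. The replicate block changed no call among the 9 genes. With the replicate block the 7 ratios kept their values, 1.56 for Scd2 to Scd1, 0.86 for Fads1 to Fads2, 1.86 for Fads3 to Fads2, -0.85 for Elovl5 to Fads2, -1.34 for Elovl3 to Elovl1, -1.49 for Elovl4 to Elovl1 and 2.17 for Elovl3 to Elovl6, each at an exact p of 0.0625, the smallest that 5 sign flips can give. Depth is unknown, and Elovl4 was too low for its difference to be sized.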
